A study of Mus musculus with 3 samples.

Results

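Genes for 4 transcription factors of the pancreatic acinar cell, the cell that makes digestive enzymes, were followed through organogenesis: Ptf1a (ENSMUSG00000026735), Rbpjl (ENSMUSG00000017007), Bhlha15 (ENSMUSG00000052271), also called Mist1, and Nr5a2 (ENSMUSG00000026398), also called LRH-1. They were chosen by their Ensembl identifiers, 4 of the 24318 identified genes, and not by a rule on their values. Earlier results of these data were known at that time. H3K36me3, a histone mark laid down over the bodies of transcribed genes, had been profiled by CUT&Tag, in which an antibody directs a transposase to the mark. Epithelial cells of wild-type C57BL/6 mouse embryos had been sorted for the surface protein EpCAM from the fetal pancreas at the E11.5, E13.5 and E15.5 stages, and the labels give 1 library for each. All groups share strain, genotype and antibody, and the sources used here do not say how many embryos each library holds. With 1 library per stage no test was possible, so every difference below is a size in these libraries.

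PTF1A is a basic helix-loop-helix (bHLH) factor that the pancreas needs to form, and it marks early multipotent cells before it becomes restricted to the acinar lineage. It works within the PTF1 complex, with a common bHLH partner and a further subunit that is RBPJ in early cells and RBPJL in acinar cells. BHLHA15 is a bHLH factor that organises the secretory apparatus of acinar cells. NR5A2 is a nuclear receptor that acts with PTF1 on genes for digestive enzymes and also serves bile acid and cholesterol metabolism in the liver.

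Each gene has 3 values per library, headed GB, PR and SE in the deposited files. The headers do not explain these names, and the values themselves show what the windows hold. A GB value times the width of its window must come to a whole number of the smallest steps of its library. The smallest width that meets this in every library with signal was 1839 positions for Ptf1a, 12255 for Rbpjl, 4156 for Bhlha15 and 116865 for Nr5a2. For Ptf1a and Bhlha15 this equals, to the base, the whole span of the gene in RefSeq (GRCm38.p6). For Rbpjl it equals the span from a later RefSeq start to the end of the gene. Ptf1a lies on chromosome 2 from 19445663 to 19447501 on the plus strand, and Bhlha15 on chromosome 5 from 144190286 to 144194441 on the plus strand. Rbpjl lies on chromosome 2 from 164403081 to 164415448 on the plus strand, a span of 12368 positions. Its shorter window length fits the start at 164403194. Nr5a2 lies on chromosome 1 from 136842562 to 136960448 on the minus strand, and its window is 1022 positions shorter than that span, so its exact place is not known here. GB is therefore read as the gene body.

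The PR window is 6000 positions wide and the SE window 12000. Among genes with bodies of over 200 and up to 1500 positions, the summed PR signal was at least the summed GB signal in 100% of genes in all libraries. With bodies of over 1500 and up to 3000 positions this held in 97.9, 98.1 and 98.3% of genes in stage order. With bodies of over 4000 and up to 6000 positions it held in 57.1, 55.0 and 63.7%, while the SE sum was still at least the GB sum in 98.9, 99.1 and 98.9%. PR therefore behaves as a window reaching 3000 positions into the gene from one of its ends, and SE as one reaching 6000. From the name PR that end is read here as the start, which no source states.

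**Figure D1:**
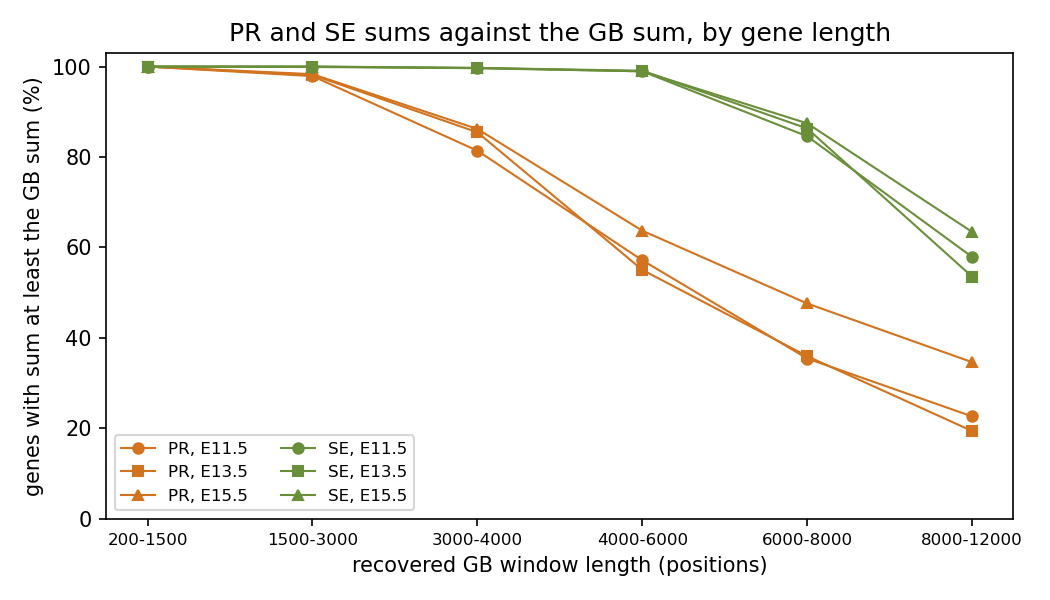
Share of genes whose summed PR signal (orange) or SE signal (green) is at least their summed GB signal, by recovered GB window length in positions, with a marker shape per stage. The PR curves leave 98% beyond 3000 positions and the SE curves leave 99% beyond 6000.

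The sequence just before a RefSeq start of each gene was taken. It lies inside the window read as PR for Ptf1a, Rbpjl and Bhlha15, and for Nr5a2 this is not known. It is shown because the PTF1 complex binds a paired motif and 3 of the 4 factors are its subunits or bHLH relatives. The 250 bases before the RefSeq start (GRCm38.p6) are chr2:19445413-19445662 for Ptf1a, chr2:164402944-164403193 for Rbpjl, chr5:144190036-144190285 for Bhlha15, all on the plus strand, and chr1:136960449-136960698 on the minus strand for the outermost start of Nr5a2. Capitals mark the E-box CANNTG, the general bHLH motif, and TGGGAA, the core bound by RBPJ-type proteins, both searched on both strands.
Ptf1a: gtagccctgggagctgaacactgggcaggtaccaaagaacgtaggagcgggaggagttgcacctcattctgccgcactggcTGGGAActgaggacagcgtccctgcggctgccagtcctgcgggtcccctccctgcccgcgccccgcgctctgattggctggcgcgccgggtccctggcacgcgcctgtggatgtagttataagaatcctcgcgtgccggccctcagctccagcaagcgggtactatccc
Rbpjl: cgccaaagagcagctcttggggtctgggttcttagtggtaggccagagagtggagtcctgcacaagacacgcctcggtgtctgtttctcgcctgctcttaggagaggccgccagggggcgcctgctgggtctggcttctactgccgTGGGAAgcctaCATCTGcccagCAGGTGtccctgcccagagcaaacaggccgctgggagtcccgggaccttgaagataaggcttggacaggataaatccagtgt
Bhlha15: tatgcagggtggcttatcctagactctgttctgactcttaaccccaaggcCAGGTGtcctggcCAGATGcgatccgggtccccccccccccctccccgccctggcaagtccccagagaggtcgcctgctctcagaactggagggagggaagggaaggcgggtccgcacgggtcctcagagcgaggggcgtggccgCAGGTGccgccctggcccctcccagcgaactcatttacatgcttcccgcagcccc
Nr5a2: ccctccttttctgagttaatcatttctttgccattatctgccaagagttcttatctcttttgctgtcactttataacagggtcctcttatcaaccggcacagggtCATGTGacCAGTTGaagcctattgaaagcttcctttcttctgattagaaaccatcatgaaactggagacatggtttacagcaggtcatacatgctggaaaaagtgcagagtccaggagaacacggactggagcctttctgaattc
Rbpjl was the only one of these 4 windows with both motifs. Its TGGGAA starts 104 bases before the start at 164403194, and E-boxes start 11 and 22 bases further on. The RefSeq gene itself begins earlier, at 164403081, so these motifs lie within its span. An E-box and a TGGGAA starting within 25 bases of each other are found in 5.23% of the 32851 RefSeq promoter windows of this length. The Ptf1a window holds a TGGGAA and no E-box, the Bhlha15 window 3 E-boxes and the Nr5a2 window 2. Alone, these motifs are common, with an E-box in 66.2% and TGGGAA in 21.6% of windows. AAGGTCA, the core bound by NR5A receptors, is in 4.08% of windows and in none of the 4 shown. No match overlaps another in these windows. The Nr5a2 window has a GC content of 43.2%, against 66.0% for Ptf1a, 60.4% for Rbpjl and 66.8% for Bhlha15.

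Signal over the gene bodies of Ptf1a, Rbpjl and Nr5a2 was highest in the E15.5 library and higher at each later stage, and Bhlha15 went the other way. In deposited units, Ptf1a had GB values of 0, 0.0100 and 0.0757 in stage order. Rbpjl had 0.00362, 0.00743 and 0.0206 at the same stages, and Nr5a2 had 0.00440, 0.00821 and 0.0280. At E11.5 Ptf1a and Rbpjl thus lay below the library median GB of 0.00432 and Nr5a2 just above it, and at E15.5 all 3 were in the top 10% of genes. Bhlha15 had 0.0223, 0.0192 and 0.00251, and so was in the top 10% at both earlier stages and below the E15.5 median of 0.00371. A body signal higher at each step was found in 19.8% of the 18116 genes above the floor of 0.00413, the median GB over genes and libraries, and one lower at each step in 17.8%. In a sorted population, fewer cells bearing the mark on a gene and less of the mark per cell cannot be told apart. A GB value at or above the 90th percentile belongs to 10% of genes by construction. That percentile was a GB of 0.0126, 0.0116 and 0.0201 in stage order, and 12.9, 14.8 and 20.3% of genes were at 0. The E15.5 library thus had both higher top values and more genes at 0, and values as deposited are not corrected for this.

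**Figure D2:**
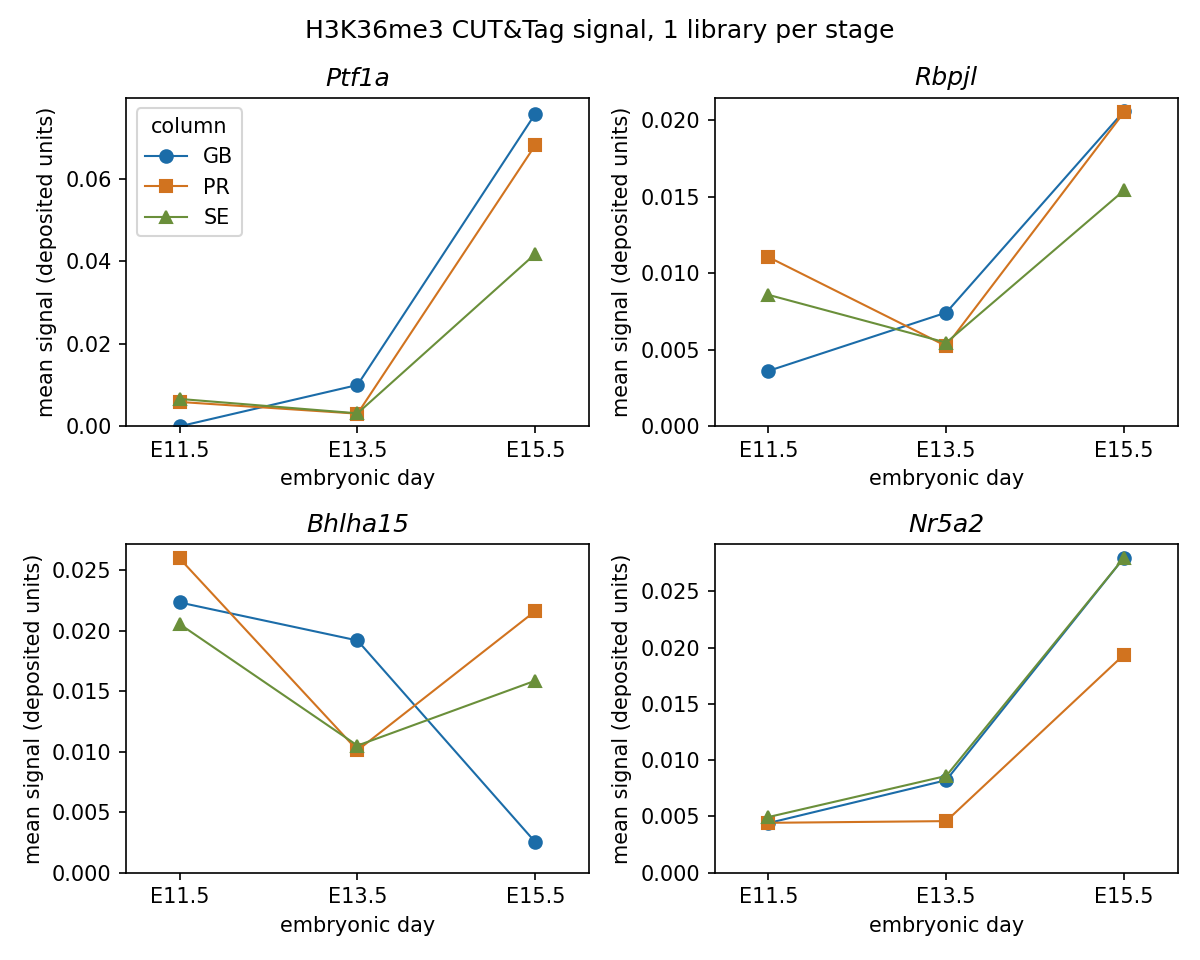
Mean H3K36me3 signal in deposited units (y axis, a separate linear scale from 0 in each panel) by embryonic day in the GB (circles), PR (squares) and SE (triangles) columns, 1 library per point. As deposited, Ptf1a, Rbpjl and Nr5a2 are highest at E15.5 in all columns, and GB of Bhlha15 is lowest there. Rbpjl is not highest at E15.5 in PR after division by library means, nor in PR or SE by rank.

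Ranks within a library need no scaling between libraries. The percentile of Ptf1a among identified genes in GB was 6.47, 86.2 and 98.9 in stage order, the first being shared by all genes listed at 0. That of Rbpjl was 42.9, 76.0 and 90.4, and that of Nr5a2 was 50.8, 79.7 and 93.9. All 3 ranks were thus higher at each later stage, and a single scale factor for a library leaves them as they are. Bhlha15 stood at 97.4, 96.9 and 41.0.

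**Figure D3:**
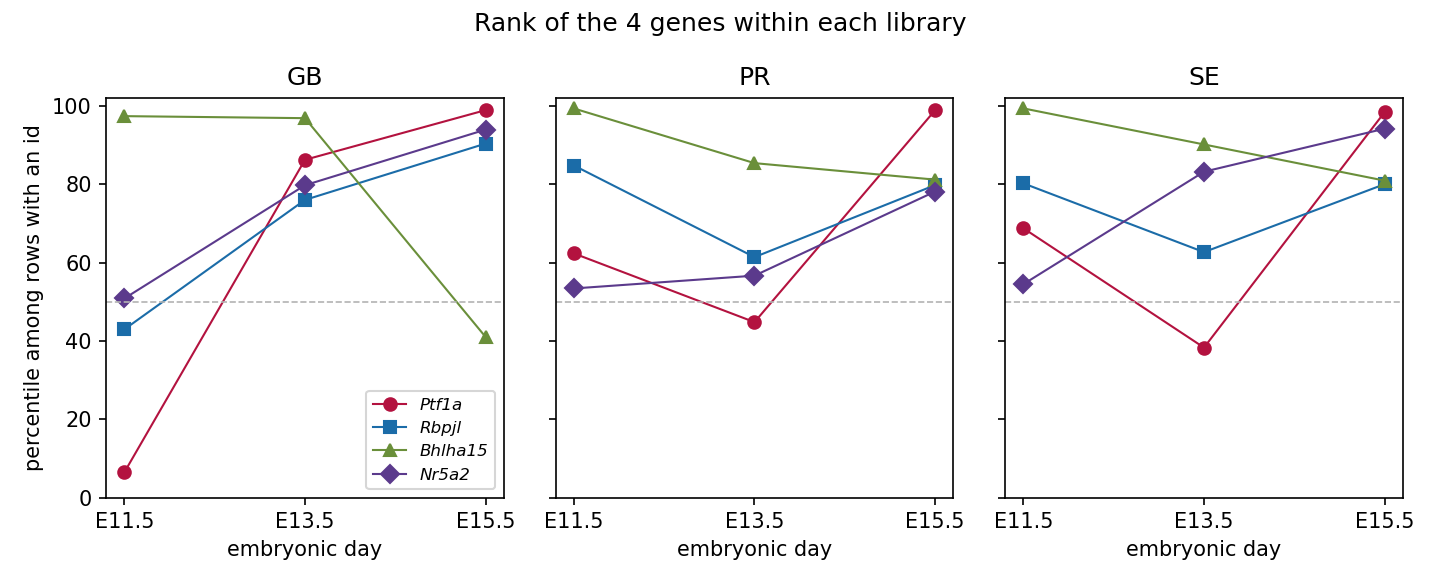
Percentile of each gene among rows with an identifier (y axis) at each stage, in panels for GB, PR and SE, with the dashed line at 50. In GB, Ptf1a, Rbpjl and Nr5a2 climb to 90.4 or above at E15.5 while Bhlha15 drops to 41.0, and in PR and SE all 4 genes are at 78.1 or above at E15.5.

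Short bodies hold little coverage, and the 4 genes differ greatly in how much data stands behind each value. A value can be written as whole coverage steps, a step being the smallest amount by which 1 covered position raises the sum of a window. The body of Ptf1a held 0, 110 and 855 steps in stage order, so at most 5.98% of its positions carried any signal at E13.5. The body of Bhlha15 held 573, 476 and 64 steps, at most 1.54% of its positions at E15.5. Such sums can come from a few fragments, whose number is not known. Rbpjl had 274, 544 and 1550 steps, and Nr5a2 had 3176, 5734 and 20096. Nr5a2 thus had by far the most steps of the 4, as its body is the longest. They covered at most 2.72, 4.91 and 17.2% of its positions in stage order.

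Set against genes whose recovered body length was within 1.5 times its own, Nr5a2 stood furthest out for E15.5 against E11.5. Its GB percentile among 2015 such genes was 50.6, 93.1 and 99.8 in stage order. E15.5 was 6.37-fold above E11.5, and of the 1322 long genes compared for this pair 7 had a larger ratio. Only 5.30% of these long genes were at least 2-fold higher at E15.5 and 7.49% at least 2-fold lower. E15.5 was 3.41-fold above E13.5, with 9 of 1318 such genes higher, and E13.5 was 1.87-fold above E11.5, with 76 of 1353 above it.

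The other bodies have to be read against a wider spread. Among 4414 genes of similar length the GB percentile of Rbpjl was 28.5, 66.0 and 87.9 in stage order, and among 1007 such genes that of Ptf1a was 4.42, 68.1 and 93.2. Bhlha15 stood at 94.4, 93.5 and 36.1 among 2629. All 4 thus kept the order of their stages when ranked by length. Rbpjl was 5.69-fold higher at E15.5 than at E11.5, percentile 92.2 of the change among 3665 genes of similar length, of which 31.2% were at least 2-fold higher. Its E15.5 value was 2.77-fold that at E13.5, at percentile 77.3. Ptf1a was listed at 0 at E11.5, so no fold is given for that pair, and 11 of 794 genes of similar length had a larger log2 ratio of value plus 0.001. Its E15.5 value was 7.56-fold that at E13.5, at percentile 71.3 of similar genes, 51.8% of which were at least 2-fold higher. A change of that size in so short a body was thus common in these libraries. Bhlha15 at E15.5 was 0.112 times its E11.5 value and 0.131 times its E13.5 value, at percentiles 14.6 and 18.0 of the change among genes of similar length. Of those genes, 29.4% and 29.1% were at least 2-fold lower, and 45.8% and 47.4% at least 2-fold higher.

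**Figure D4:**
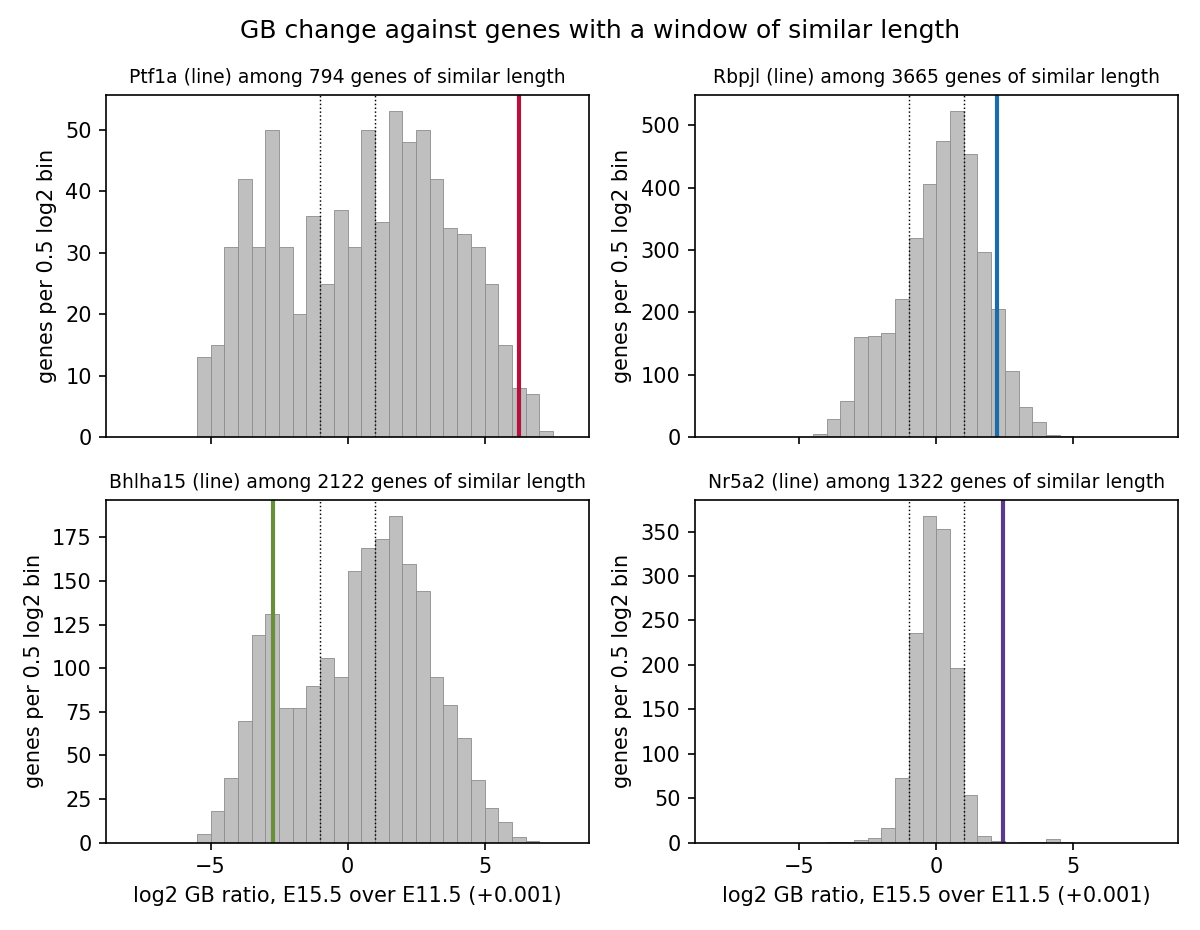
Number of genes (y axis) by log2 ratio of GB at E15.5 over E11.5, after adding 0.001 (x axis), among genes with a GB window within 1.5 times the length of the named gene, whose own ratio is the coloured line, with dotted lines at 2-fold. The spread is widest around Ptf1a and Bhlha15 and narrowest around Nr5a2, which lies beyond all but 7 of 1322 genes.

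Counts at 2-fold follow from these values. A gene was compared where the higher library reached the column's floor, and all 4 factors did in every column and pair. In GB, 3 factors were at least 2-fold higher at E15.5 than at E11.5 and 1, Bhlha15, at least 2-fold lower, where 26.5% and 22.8% of all compared genes were. The same held for E15.5 against E13.5, with 27.6% and 22.1% of all genes, although quantile normalization brought Rbpjl and Nr5a2 to log2 ratios of 0.79 and 0.98, and division by library means brought Rbpjl to 0.76, all under 2-fold. Division by the mean also turned the shares of all genes to 16.3% higher and 33.8% lower for this pair, and to 17.6% and 33.4% for E15.5 against E11.5. Calls use the ratio after adding 0.001 to both values. For E13.5 against E11.5 only Ptf1a was called, as higher, while Rbpjl, at a plain ratio of 2.05, was kept under 2-fold by the added 0.001, where 17.2% of all genes were higher and 19.4% lower by that much. The median log2 ratio of the 4 factors was 2.33, 1.51 and 0.82 for these pairs, against 0.14, 0.22 and -0.07 over all compared genes. The 3 pairs share libraries, so their counts are not separate evidence.

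In PR, Ptf1a was the highest of the 4 factors at E15.5 and the lowest at E13.5. It had PR values of 0.00591, 0.00307 and 0.0682 in stage order, the last at percentile 98.9. Rbpjl had PR values of 0.0111, 0.00525 and 0.0205, and Nr5a2 had 0.00443, 0.00458 and 0.0194. As deposited, both were highest at E15.5, as were 52.0% of genes above the GB floor in PR. In rank this held for Nr5a2, with percentiles of 53.4, 56.6 and 78.1 in stage order, but not for Rbpjl, with 84.8, 61.4 and 79.8. Mean PR over all genes was 0.00552, 0.00506 and 0.0118 in stage order. Bhlha15 had PR values of 0.0260, 0.0101 and 0.0216, with percentiles of 99.3, 85.4 and 81.2. Its level near the start at E15.5 was thus close to that of Rbpjl and Nr5a2, although its body signal was the lowest of the 4.

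All 4 factors were at least 2-fold higher in PR at E15.5 than at E13.5, where 52.2% of all compared genes were and 24.7% were at least 2-fold lower. Ptf1a was 22.2-fold higher, Nr5a2 4.24-fold, Rbpjl 3.91-fold and Bhlha15 2.14-fold. The median log2 ratio over all genes was 1.12 for this pair, and relative to it Ptf1a stood at 2.97, Nr5a2 at 0.75, Rbpjl at 0.67 and Bhlha15 at -0.09. Dividing each library by its mean left Ptf1a alone past 2-fold and turned the log2 ratio of Bhlha15 to -0.11, and dividing by the median brought Bhlha15 to 0.46. For E15.5 against E11.5, Ptf1a was higher by a log2 ratio of 3.32 and Nr5a2 by 1.91, where 50.0% of genes were at least 2-fold higher and 26.0% lower. Rbpjl, 1.86-fold higher, and Bhlha15, at 0.833 times its E11.5 value, were not called. The log2 ratio of Rbpjl became -0.19 after division by the mean and -0.24 after quantile normalization. That of Bhlha15 became -1.29 and -1.59, past 2-fold lower, and that of Nr5a2 0.93 after division by the mean, no longer past 2-fold. Division by the mean left 30.4% of all genes higher and 38.7% lower for this pair, and 29.6% higher and 38.7% lower for E15.5 against E13.5. For E13.5 against E11.5 only Bhlha15 was called, as lower at 0.389 times, where 32.8% of genes were at least 2-fold lower and 28.8% higher. Rbpjl, at a plain ratio of 0.474, was again kept under 2-fold by the added 0.001.

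In the wider SE window, Nr5a2 had 0.00494, 0.00860 and 0.0280 in stage order, and Ptf1a had 0.00664, 0.00315 and 0.0418. Rbpjl had 0.00859, 0.00547 and 0.0154, and Bhlha15 had 0.0205, 0.0105 and 0.0159. Percentiles in SE were 54.5, 83.2 and 94.2 for Nr5a2 and 68.7, 38.3 and 98.4 for Ptf1a. They were 80.2, 62.7 and 80.0 for Rbpjl and 99.3, 90.1 and 80.9 for Bhlha15. In rank, Bhlha15 was thus lower at each later stage, and Rbpjl was no higher at E15.5 than at E11.5. SE holds PR, so it repeats much of the same signal. At E15.5 against E13.5, 3 factors were at least 2-fold higher, all but Bhlha15, where 45.7% of genes were and 17.9% were lower. The median log2 ratio over all genes was 0.85 for this pair, division by library means left Ptf1a alone past 2-fold, and division by the median brought Rbpjl to 0.89. At E15.5 against E11.5 these were Ptf1a, 6.30-fold, and Nr5a2, 5.67-fold, where 42.7% of genes were and 19.7% were lower. After division by the mean and after quantile normalization, Bhlha15 was also called, as lower, with log2 ratios of -1.07 and -1.46. Division by the mean left 23.9% of all genes higher and 32.3% lower for this pair, and 23.8% higher and 31.9% lower for E15.5 against E13.5. At E13.5 against E11.5 none was called, where 19.9% of genes were higher and 24.8% lower. The plain ratio of Ptf1a for that pair, 0.475, is past 2-fold, and adding 0.001 to both values keeps it from being called.

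Having nested windows, the 2 shortest genes allow the signal to be placed inside or outside the transcribed span. The whole body of Ptf1a lies within PR. At E11.5 all 219 steps of its PR window fell outside the gene, and at E13.5 all 110 fell inside it. At E15.5 the body held 465 steps per 1000 positions, the rest of PR 398 and the part of SE outside PR 94.7. Signal at E15.5 was thus about as dense beside the Ptf1a gene as over it, and sparser in the outer part of SE.

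Bhlha15 lies within SE. Per 1000 positions its body held 138, 115 and 15.4 steps in stage order, and the rest of SE held 121, 35.2 and 141. The body thus held 37.6, 63.3 and 5.48% of the SE sum in stage order. The ratio of PR to GB was 8.61 for Bhlha15 at E15.5, percentile 93.2 of all genes with both values above 0. It was 0.900 for Ptf1a, 0.996 for Rbpjl and 0.692 for Nr5a2, all below the median of 1.42. A ratio within a library is free of the scale of that library, but not of how its signal is spread between PR and GB. The median ratio over all genes was 0.827 at both E11.5 and E13.5, below that at E15.5. The ratio of Bhlha15 was 1.16 at E11.5 and 0.527 at E13.5.

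**Figure D5:**
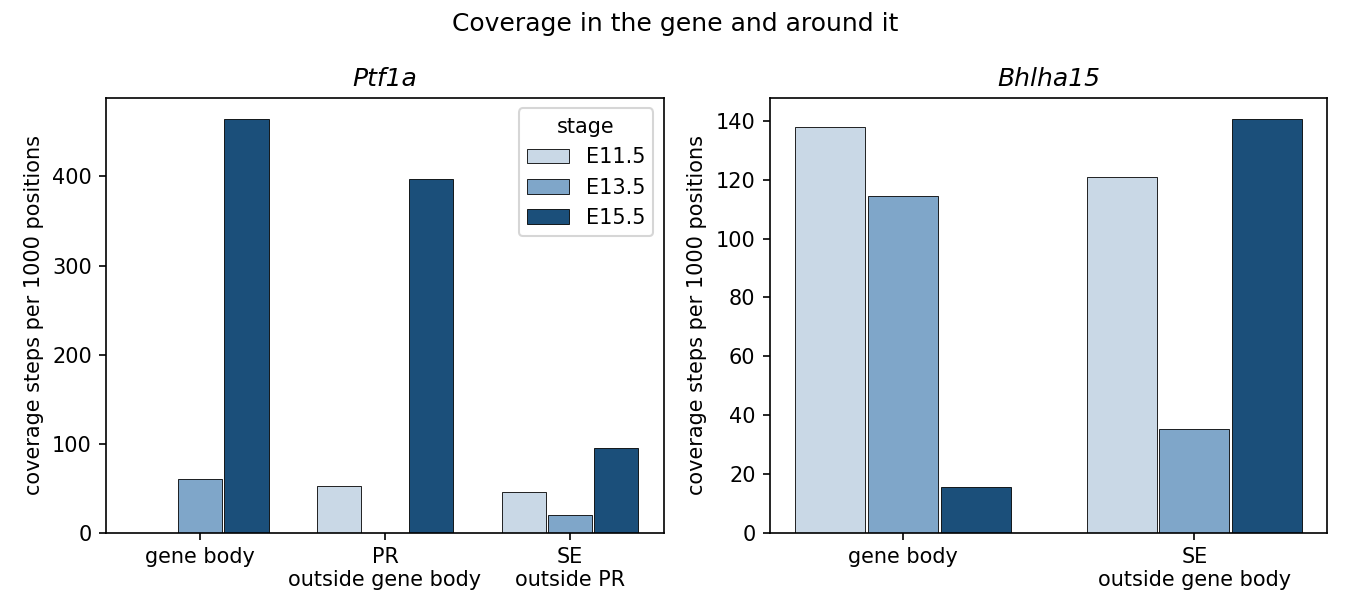
Coverage steps per 1000 positions (y axis, from 0) in the gene body and in the parts of the PR and SE windows outside it, for Ptf1a (left) and Bhlha15 (right), with 1 bar per library in stage order. At E15.5 Ptf1a has 465 in its body and 398 beside it, and Bhlha15 has 15.4 in its body and 141 beside it.

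Nr5a2 was arranged in yet another way. The part of SE outside PR held 33.7, 75.3 and 225 steps per 1000 positions in stage order, and PR held 27.3, 27.3 and 119. Its body held 27.2, 49.1 and 172. Signal of Nr5a2 at E13.5 and E15.5 was thus sparser in PR than over the body or in the outer part of SE. For Rbpjl at E15.5 the body and PR were nearly equal, at 126 steps per 1000 positions each, and the outer part of SE held 63.3.

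Likeness between genes was taken as the mean absolute difference of GB and PR percentiles over the 3 libraries, 6 values in all. Rbpjl and Nr5a2 were the closest of the 4 factors to each other, at 8.83 percentile points. Among 18106 genes above 0 in GB in all libraries, 183 came within 10 points of Nr5a2, 135 of Rbpjl and 63 of Bhlha15. Ptf1a had 11 such genes, although it was itself at 0 in GB at E11.5, where every gene compared was above 0. The closest were ENSMUSG00000025792, 2.70 points from Bhlha15, and ENSMUSG00000027829, 3.11 points from Rbpjl. The deposited files and the tables used here pair no Ensembl identifier with a symbol, so other genes of the acinar programme and markers of the sorted cells were not analysed here.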

How the data were processed

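The authors deposited 3 tables of mean coverage signal, 1 per library, with 25493 rows and columns named PR, GB and SE in the headers. Bowtie2 (2.4.2) and the build mm10 are listed in the submitters' processing notes. Filtering, scaling, gene models and read depth are not given in the sources used here, so no counting interval is given. Stages follow the sample labels. Rows without an identifier (1175, 4.61%) stayed out. The table of RefSeq genes held 0 of the Ensembl identifiers, and the 4 symbols come with the identifiers of the gene set.

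With Python 3.11.15 and numpy 2.4.6, the step of each library (0.162, 0.167 and 0.163 in stage order) was fitted to PR times 6000. Of sums under 500 steps, 100% lay within 0.05 steps of a whole number. GB lengths were recovered for genes above 0 in at least 2 libraries, which favours nonzero short genes. Percentiles are midranks over identified genes. Calls used log2(value + 0.001), a floor at the column median (0.00413 for GB, 0.00407 for PR, 0.00460 for SE) and 2-fold, while folds in the text are plain ratios of deposited values. Values were compared as deposited. The procedures were tested on simulated data. Genes named are the 4 factors and, by likeness, the nearest identifiers. The factors, settings and lists were chosen with earlier results of these data known. Comparison of changes with genes of similar length was added after seeing the data.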

Additional observations from a re-analysis of the deposited data

How the results depend on the processing

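Each library rests on 1 sample, depth is unknown, and sums in short bodies are small. No paired analysis was possible because there is only 1 library at every stage. The log2 GB ratios of E15.5 over both earlier stages kept their direction for all 4 factors under division by the median, division by the mean and quantile normalization. Of 72 recomputed counts of factors past 2-fold, 58 stayed within 1.5 times the main count, but only 47 held the same factors in the same directions. None turned a called factor to the opposite direction. Only division by the median or mean and quantile normalization could have, as the other settings cannot change the sign of a ratio. Leaving out the floor could not change a count either, as all 4 factors passed it. Within an unchanged or similar count, PR at E15.5 over E11.5 lost Nr5a2 and gained Bhlha15 as lower under division by the mean. Under quantile normalization PR gained Bhlha15 as lower, where 34.5% of all compared genes were lower and 34.6% higher. SE of that pair gained Bhlha15 as lower under both, where quantile normalization left 27.4% of genes lower and 27.8% higher. For PR at E13.5 over E11.5 the main count of 1 became 2 with a pseudocount of 0.0001, 3 at 1.5-fold and 2 after quantile normalization. For GB of that pair, 1 became 2, 3 and 3 under the same settings, and for SE, 0 became 1, 3 and 2. For E15.5 over E13.5, PR fell to 1 from a main count of 4, and SE to 1 from 3, both under division by the mean and under quantile normalization, with Ptf1a the factor left. GB of that pair gave 2 after quantile normalization, against a main count of 4. Quantile normalization left 22.1% of all compared genes higher and 22.3% lower in GB for that pair. In PR these shares were 34.5% and 34.3%, and in SE 27.6% and 27.7%. Pseudocounts and thresholds act on the ratio by construction, and the cause of the other changes was not tested. Among genes of similar length, the percentile of the E15.5 over E11.5 change in GB was 98.6 for Ptf1a, 92.2 for Rbpjl, 14.6 for Bhlha15 and 99.4 for Nr5a2, against 99.3, 89.2, 8.71 and 90.6 among all compared genes.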

Other observations

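Coverage sums came mostly in even numbers of steps. Of PR sums above 0, 93.0, 92.3 and 95.1% were even in stage order. The PR sums of Nr5a2 at E11.5 and E13.5 were both 164 steps, and the 110 steps of Ptf1a at E13.5 were even too. The sources used here do not say how reads were turned into coverage, and the number of fragments behind a sum was therefore not derived.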
